A study of Mus musculus with 52 samples.

Results

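Bone marrow of 6 female mice that carried an activated Erbb2 oncogene and had recorded tumor burdens was set against those burdens, gene by gene. The mice were the NeuT+ 24 weeks group, 6 of the 47 mice and 52 arrays of the series, and they were chosen by genotype, age and the tumor burden in their labels. MMTV-NeuT transgenic females on the BALB/c background develop mammary carcinomas because a mammary tumor virus promoter drives the transgene, and the labels grade all 6 as advanced carcinoma. The labels give a tumor burden of 20296073, 49847169, 74905111, 75578115, 101006151 and 156499187, without a unit. They are called mouse 1 to mouse 6 in this order, and values for the 6 mice stand in it throughout. The 3 highest burdens (mice 4, 5 and 6) were set against the 3 lowest (mice 1, 2 and 3). The 5 NeuT- 24 weeks females, non-transgenic siblings graded normal with a tumor burden of 0, served as background. A further 6 NeuT+ 12 weeks mice with a burden above 0 were used to look at the same genes in other animals. Each mouse gave 1 Illumina mouseWG-6 v2.0 bead array of total bone marrow RNA.

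Bone marrow makes granulocytes, monocytes, red cells, platelets and B cells from shared progenitors. In tumor-bearing animals it is known for increased output of granulocytes and monocytes, driven by colony-stimulating factors and interleukins that tumors and stroma release, while B-cell and red-cell formation can contract. Major histocompatibility complex (MHC) class II molecules present peptides to helper T cells; in marrow they are carried mainly by B cells, dendritic cells and some macrophages, and their genes depend on the co-activator encoded by Ciita. All of these cells were measured together, so fewer cells of a type and less RNA per cell cannot be told apart.

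The burdens spanned 7.71-fold, or 0.887 on the log10 scale, and mice 4 and 3, on either side of the split, differed by only 1.01-fold in burden. The leading digits of the animal numbers place mice 3 and 5 in series 12 and the other 4 in series 13; what such a series marks is not stated in the labels. The high and the low burdens held 1 mouse of series 12 each. Between 14578 and 15818 of 45281 probes were detected per array (detection p under 0.01), against 14907 to 16594 in NeuT- mice. Mouse 5 had the lowest mean correlation with the other 5 profiles, 0.973 against 0.980 to 0.988 for the others. Its single correlations ran from 0.967 to 0.981, the highest with mouse 3 of the same series, and pairs among the other 5 ran from 0.978 to 0.993. It had the lowest level of the 6 mice for 29.3% of all genes. Of the NeuT- mice only 1 was of series 12 and the others were of series 13. The root mean square distance from the NeuT- mean profile was 0.267, 0.428, 0.459, 0.354, 0.670 and 0.381 (log2 units), with both series 12 mice farthest. The mouse of lowest burden lay nearest to NeuT- marrow. By correlation, it was also the only one of the 6 closer to the NeuT- 24 weeks mean than to the mean of the other mice of its group. This distance had a Pearson r of 0.52 with log10 burden (two-sided exact permutation p = 0.225, adjusted over 4 array measures 0.45) and a Spearman rho of 0.37 (exact p = 0.497, adjusted 0.752); r was 0.65 without the 2 mice farthest from the median burden and 0.62 in series 13. The other 3 measures, which were the number of detected probes, the median raw signal and the spread of relative log expression, had r of 0.05, -0.20 and 0.58, with exact permutation p of 0.969, 0.681 and 0.144 (adjusted 0.969, 0.907 and 0.45). Their rho values were -0.14, -0.60 and 0.31, with exact permutation p of 0.803, 0.242 and 0.564 (adjusted 0.803, 0.752 and 0.752). Peg3, an imprinted gene, was chosen because it marks the transgenic mice in these data, so it is no independent check of the labels. It was at 9.92, 9.71, 11.76, 9.76, 11.34 and 10.18 (log2 level) against 5.65 ± 0.22 in NeuT- mice (SD, n = 5). All 6 mice were above every NeuT- mouse, and the levels of Peg3 followed the number series rather than the burden order, with both series 12 mice on top. Peg3 had a slope of 1.00 ± 1.07 log2 per 10-fold burden.

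No gene passed the test against tumor burden. A straight line of the log2 level on log10 burden was fitted to each of 11309 genes with limma, and 0 genes (0%) had an adjusted p under 0.05; the smallest adjusted p was 0.981. At an unadjusted limma p under 0.05 there were 262 genes (2.32%), of which 65 (0.575%) were higher and 197 (1.74%) lower with burden. Of all slopes, 45.7% were above and 54.3% below 0 (53.3% below 0 without mouse 5), with a median of -0.04 log2 per 10-fold burden. The slope of 53.4% of all genes kept its sign when each mouse was left out in turn. The 6 mice set a hard limit on rank or permutation evidence: their 720 orders allow no two-sided exact p below 0.00278, and 629 genes would have to reach that value together for an adjusted p of 0.05. In these data 9 of 11309 genes reached it by Pearson r and 9 by Spearman rho, and 0 genes passed after adjustment by either measure. At an unadjusted exact permutation p under 0.05 there were 233 of 11309 genes by Pearson r and 329 of 11309 by Spearman rho. The 4 mice of series 13 alone allow no exact p below 0.0833. On simulated data of 6 mice with 200 changed genes, a slope of 2 was called for 132 of 200 genes and a slope of 1 for 0 of 200. These counts need not carry over: Btnl10, with a measured slope of -2.92 ± 0.80, had an adjusted limma p of 0.981. Gene lists are therefore described by their counts and medians. Sign counts of a list are to be read beside the 54.3% of all slopes below and the 45.7% above 0. Members of a list share the same 6 mice, so they are not independent.

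**Figure D1:**
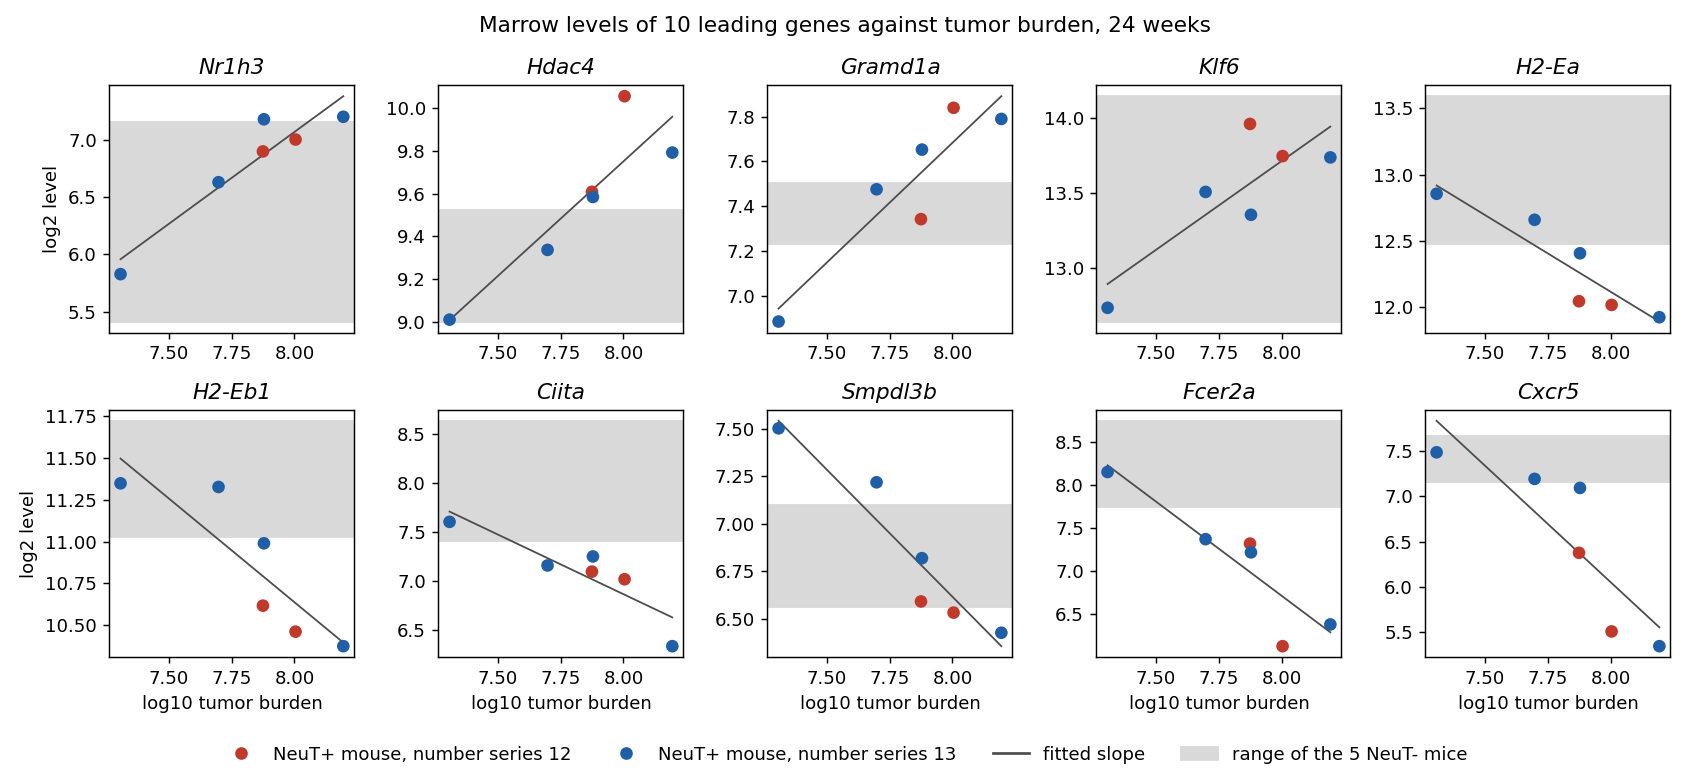
Log2 level of 10 leading genes (y axes) against log10 tumor burden (x axes, burden without a unit) in the 6 NeuT+ mice, coloured by number series, with the fitted slope and a grey band for the range of the 5 NeuT- mice. The genes were chosen by slope on these burdens. In all 10 panels the mouse of lowest burden has the lowest level where the slope is positive and the highest where it is negative. The levels of H2-Ea, Fcer2a and Cxcr5 leave the NeuT- band as burden increases.

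Genes of MHC class II presentation made up 3 of the 12 leading genes with a negative slope. H2-Ea, the alpha chain of the I-E molecule, was at 12.86, 12.66, 12.04, 12.41, 12.02 and 11.92 (log2 level), against 13.10 ± 0.42 in NeuT- mice (SD, n = 5). Mice 1 and 2 were within the NeuT- range for H2-Ea and the other 4 below it, while the 3 highest and 3 lowest burdens overlapped. Its slope was -1.16 ± 0.28 log2 per 10-fold burden (SE; limma unadjusted p = 0.00483, adjusted 0.981), which is 2.04-fold over the whole burden range. Pearson r of H2-Ea was -0.91 (exact permutation p = 0.00556, adjusted over all genes 0.968) and Spearman rho -0.94 (exact p = 0.0167). Without the 2 mice farthest from the median burden r was -0.86, and the slope in series 13 alone was -1.05. H2-Eb1, which encodes the partner beta chain, was at 11.35, 11.33, 10.62, 10.99, 10.46 and 10.37, against 11.37 ± 0.25 in NeuT- mice. Mice 1 and 2 were within the NeuT- range for H2-Eb1, and the other 4 were below it. Its slope was -1.24 ± 0.34 (limma unadjusted p = 0.00795, adjusted 0.981; r = -0.87, exact permutation p = 0.00556, adjusted 0.968). Ciita, the master co-activator of these genes, was at 7.60, 7.16, 7.10, 7.25, 7.02 and 6.34, against 7.98 ± 0.50 in NeuT- mice. Only the mouse of lowest burden was inside the NeuT- range for Ciita. The slope of Ciita was -1.21 ± 0.32 (limma unadjusted p = 0.00699, adjusted 0.981; r = -0.88, exact permutation p = 0.0167, adjusted 0.968; r = -0.51 without the 2 farthest mice).

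The promoters of class II genes carry an X box and a Y box at a short fixed spacing, through which CIITA and its partner factors act. A pair of windows in which letters of both boxes were found is shown as an example of this arrangement. RefSeq promoter windows of 300 bases (250 before to 50 after the start, GRCm38.p6) were searched for 7 of the 10 measured list members. Ciita and H2-Ab1 had no promoter entry, and Cd74 was left out of the search. The gene counts below do not cover these members. Letters of the X box (GATGATG) and of the Y box (TGATTGG), chosen after these windows had been seen, were searched on both strands and do not overlap each other in the windows printed. Of all 32851 promoter windows, 3.48% held the first, 7.82% the second and 0.237% both. Both were found in 3 of the 7 genes (H2-Eb1, H2-DMb1 and H2-DMb2), and 6 of 7 held the Y box letters. The windows of H2-Eb1, at chr17:34305617-34305916 on the plus strand, and of H2-DMb1, at chr17:34152941-34153240 on the plus strand, follow. Only the searched letters of each box are in capitals, those of the X box first.
H2-Eb1: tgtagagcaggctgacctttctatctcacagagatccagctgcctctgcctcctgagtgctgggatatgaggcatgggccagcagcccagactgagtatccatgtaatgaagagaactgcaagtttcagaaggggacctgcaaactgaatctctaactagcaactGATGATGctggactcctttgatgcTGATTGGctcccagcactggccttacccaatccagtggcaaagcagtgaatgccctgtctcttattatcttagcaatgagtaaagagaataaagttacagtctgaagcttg
H2-DMb1: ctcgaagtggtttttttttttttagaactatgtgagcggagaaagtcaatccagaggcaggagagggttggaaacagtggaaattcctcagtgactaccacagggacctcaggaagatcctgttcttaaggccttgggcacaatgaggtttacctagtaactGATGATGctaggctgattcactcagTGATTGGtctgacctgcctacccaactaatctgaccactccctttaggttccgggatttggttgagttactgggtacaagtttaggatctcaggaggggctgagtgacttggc

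The 2 genes printed share these letters. Their slopes were not tested against each other. H2-DMb1, a subunit of the peptide-loading chaperone H2-DM, was at 10.23, 10.11, 10.07, 10.22, 9.63 and 9.81 and had a slope of -0.55 ± 0.30 log2 per 10-fold burden. H2-DMa, the other subunit, had a slope of -0.43 ± 0.29. The invariant chain gene Cd74 was at 13.54, 13.23, 12.90, 13.21, 12.59 and 12.86, with a slope of -0.94 ± 0.31 (limma unadjusted p = 0.019, adjusted 0.981). H2-Ab1, the I-A beta chain, had a slope of -0.99 ± 0.42, and H2-Oa, a modulator of H2-DM, one of -1.29 ± 0.63. All of these were lower in mice 5 and 6 than in mouse 1. Single genes depended on single mice: without mouse 1 the slope was -1.86 for H2-Ab1, -1.93 for H2-Eb1, -0.90 for H2-DMa and -0.87 for H2-DMb1, and without mouse 6 it was -1.96 for H2-Oa and -0.78 for Ciita. Without mouse 5 the slope of H2-Oa was -0.85. Of the 10 measured members of the list, 9 had a negative and 1 a positive slope, and 0 passed the test in either direction. In unadjusted limma p, 3 (H2-Eb1, Ciita and Cd74) were below 0.05. Of all genes, 1.74% were below that limit and lower with burden. The list's median slope was -0.96 against -0.04 over all genes. H2-Ea is not on this list. The positive slope was that of H2-Aa, which was detected on none of the 6 arrays. The list's median stayed between -0.998 and -0.813 when each mouse was left out in turn, and was -0.76 in series 13 alone. All 10 members of the list averaged lower in the 6 NeuT+ mice than in NeuT- mice, as did 52.4% of all genes. B cells carry most of these genes in marrow, and the 15 measured B-cell genes all had negative slopes too; their part in the class II values was not tested.

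All 15 measured members of the B-cell list had a negative slope, and 2 receptors of mature B cells outside that list, Fcer2a and Cxcr5, were among the 12 leading genes. Fcer2a encodes CD23, the low-affinity IgE receptor of mature B cells, and was at 8.15, 7.37, 7.32, 7.22, 6.13 and 6.38, against 8.33 ± 0.41 in NeuT- mice (SD, n = 5). The 3 highest burdens lay below all 3 lowest, and only mouse 1 was within the NeuT- range. Of the 3 highest burdens only 1 array detected Fcer2a, so its slope includes values not above background. It was -2.18 ± 0.45 log2 per 10-fold burden (limma unadjusted p = 0.00206, adjusted 0.981; r = -0.90, exact permutation p = 0.0194, adjusted 0.968; rho = -0.94). Without the 2 farthest mice r was -0.79, and the slope was -1.93 in series 13. Cxcr5, the chemokine receptor that brings B cells to follicles, was at 7.49, 7.20, 6.37, 7.09, 5.50 and 5.34, against 7.41 ± 0.22 in NeuT- mice. Of the 3 highest burdens only 1 array detected Cxcr5; mice 1 and 2 were within the NeuT- range and mouse 4 just under it. The slope of Cxcr5 was -2.59 ± 0.63 (limma unadjusted p = 0.00491, adjusted 0.981; r = -0.86, exact permutation p = 0.00556, adjusted 0.968), and -2.28 in series 13.

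Early B-cell genes also had negative slopes, with mouse 5 far below the others. Igll1, part of the surrogate light chain of pre-B cells, was at 11.79, 11.20, 11.10, 11.03, 9.70 and 10.71, and the 3 highest lay below the 3 lowest. It had a slope of -1.67 ± 0.63 (limma unadjusted p = 0.0344, adjusted 0.981; r = -0.73, exact permutation p = 0.0694). Blk, a B-lineage Src-family kinase, was at 10.19, 9.60, 8.82, 9.35, 7.71 and 9.13, with a slope of -1.89 ± 0.80. Vpreb1, the other part of the surrogate light chain, had a slope of -1.51 ± 0.73 and the transcription factor gene Ebf1 one of -0.89 ± 0.40. Cd79b, a signal-transducing partner of surface immunoglobulin, had a slope of -1.52 ± 0.72 with a Spearman rho of only -0.26, and the slope was -0.42 without mouse 1 and -2.59 without mouse 6. Slopes of the 15 list members ran from -1.89 to -0.83, and 0 passed the test. Igll1 and the CD20 gene Ms4a1 (2 of 15) were below 0.05 in unadjusted limma p. Of all genes, 1.74% were below that limit and lower with burden. In all 15 mouse 5 was lowest, and in 14 mouse 1 was highest, against 29.3% and 21.0% of all genes. The list averaged 9.83, 9.22, 8.98, 9.13, 7.94 and 9.07, against 9.43 to 10.97 in NeuT- mice. Between those 2 mice the other 4 spanned only 8.98 to 9.22, with no order by burden. The median slope was -1.36, and -0.97 without mouse 5, -0.70 without mouse 1, -2.30 without mouse 6 and -0.94 in series 13.

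**Figure D2:**
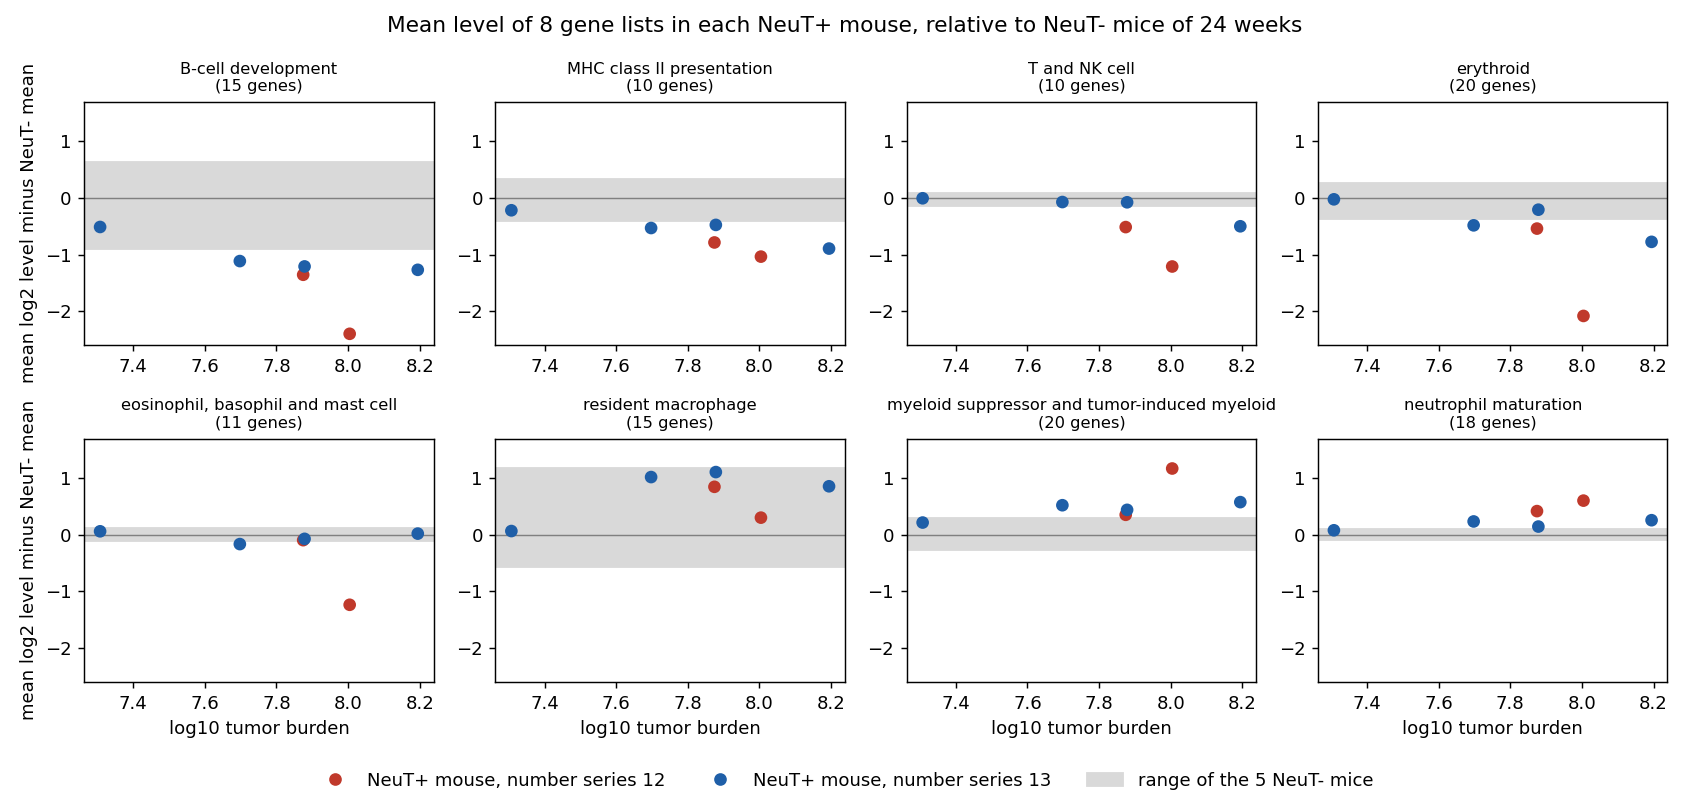
Mean log2 level of each gene list minus the NeuT- mean (y axes) against log10 tumor burden (x axes) in the 6 NeuT+ mice, coloured by number series, with a grey band for the range of the 5 NeuT- mice. Mouse 5 is far below the others for the B-cell, T and NK, erythroid and eosinophil lists and highest for the myeloid suppressor and neutrophil lists.

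Red-cell genes were lowest in mouse 5 by a wide margin. Klf1, the erythroid master transcription factor, was at 11.57, 10.88, 10.63, 10.98, 8.62 and 10.26, against 11.36 ± 0.42 in NeuT- mice (SD, n = 5). The slope of Klf1 was -2.17 ± 0.99 (limma unadjusted p = 0.0661, adjusted 0.981; r = -0.65, exact permutation p = 0.1). Gata1, a transcription factor of red cells and megakaryocytes, had a slope of -1.85 ± 0.78. Slc4a1, the red-cell anion exchanger band 3, was at 12.86, 12.49, 12.44, 12.85, 9.68 and 12.14, so that 5 mice lay close together and mouse 5 far below. The beta-globin gene Hbb-bt, which shares sequence with the other adult beta-globin gene, was at 15.56, 15.20, 15.43, 15.50, 13.06 and 14.92. All 20 measured erythroid members had a negative slope, against 54.3% of all genes, and 0 passed the test. All 20 were lowest in mouse 5, against 29.3% of all genes. The list averaged 10.83, 10.37, 10.31, 10.65, 8.77 and 10.08, against 10.48 to 11.12 in NeuT- mice. Its median slope was -1.51, but -0.79 without mouse 5, where 19 of 20 slopes were negative, and -0.77 in series 13.

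T and natural killer cell genes and those of rare granulocytes were also mostly lowest in mouse 5, 7 of 10 and 10 of 11 measured members, against 29.3% of all genes. Cd3e, a chain of the T-cell receptor complex, was at 7.95, 7.91, 7.13, 7.88, 5.40 and 7.17, and the cytotoxic-cell chemokine Ccl5 at 9.57, 9.50, 8.87, 9.49, 7.36 and 8.82. Cd2, an adhesion receptor of T and NK cells, had a slope of -1.74 ± 0.74 (limma unadjusted p = 0.052, adjusted 0.981). Of 10 measured members of this list, 9 had a negative slope and 0 passed, with a median of -1.12, of -0.67 without mouse 5, of -1.72 without mouse 1 and of -0.61 in series 13. Basophil protease gene Mcpt8 was at 10.21, 10.56, 10.20, 9.86, 8.20 and 9.86, with the 3 highest burdens below the 3 lowest. In the eosinophil, basophil and mast cell list 9 of 11 slopes were negative, and the median of -0.65 came to -0.21 without mouse 5, to -1.50 without mouse 6 and to -0.18 in series 13. Ribosomal protein genes had a negative slope in 17 of 18, with a median of -0.32 and of -0.20 without mouse 5, and 15 of the 18 were lowest in mouse 5.

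Among the genes with a positive slope, the one with the smallest p of all genes was Nr1h3, which encodes the oxysterol receptor LXR-alpha of macrophages. It was at 5.83, 6.63, 6.90, 7.18, 7.00 and 7.20, against 5.98 ± 0.70 in NeuT- mice (SD, n = 5). The 3 highest burdens lay above the 3 lowest, and mouse 1, at the low end, lay near the NeuT- mean. Nr1h3 was detected on 3 arrays of high and 2 of low burden and on 1 of 5 NeuT- arrays, so its low end is near background. The slope was 1.60 ± 0.30 log2 per 10-fold burden (limma unadjusted p = 0.00114, adjusted 0.981; r = 0.94, exact permutation p = 0.0139, adjusted 0.968; rho = 0.94, exact p = 0.0167). Without the 2 farthest mice r was 0.73, and the slope was 1.64 in series 13. Gramd1a, an endoplasmic reticulum sterol-transport protein gene, was at 6.88, 7.48, 7.34, 7.65, 7.84 and 7.79, with the 3 highest burdens above the 3 lowest and a slope of 1.07 ± 0.27. Hdac4, a class IIa histone deacetylase gene, was at 9.01, 9.34, 9.61, 9.58, 10.05 and 9.79, with a slope of 1.07 ± 0.29 and an r of 0.95 without the 2 farthest mice. These 3 genes were lowest in the mouse of lowest burden, and so were all of the 12 leading genes with a positive slope, against 13.7% of all genes. The 12 were chosen by slope on these burdens, and mouse 1 lay farthest from the median burden, so the count follows largely from the choice.

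The remaining 9 of the 12 were Bin3, Chst1, Klf6, Dhrs9, Card9, Ranbp2, Pxn, Ncoa2 and Serpinb1a. Card9, an adaptor of myeloid lectin receptors, was at 7.06, 7.94, 7.87, 7.75, 8.23 and 7.95, and Serpinb1a, an inhibitor of neutrophil proteases, at 12.16, 12.48, 12.62, 12.56, 12.89 and 12.70. For Card9 mice 2 to 6 held no order by burden. Slopes of the 12 ran from 0.71 to 1.76, limma unadjusted p from 0.00114 to 0.0213, and exact permutation p of Pearson r from 0.0139 to 0.156. Of the 12, 11 averaged higher in the 6 NeuT+ mice than in NeuT- mice, while 52.4% of all genes averaged lower. Only 2 of the 12 had no overlap between the 3 highest and 3 lowest burdens, against 4.73% of all genes that lay higher without overlap. Without the 2 farthest mice r ran from -0.34 for Ranbp2, a nuclear pore protein gene, to 0.95 for Hdac4.

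The 12 leading genes with a negative slope had slopes from -2.92 to -1.07, limma unadjusted p from 0.0016 to 0.0107 and exact permutation p of Pearson r from 0.00556 to 0.0639. All 12 were highest in the mouse of lowest burden, against 21.0% of all genes, which follows largely from their choice by slope. All 12 also averaged lower in the 6 NeuT+ mice than in NeuT- mice, as did 52.4% of all genes. Smpdl3b, a membrane-anchored phosphodiesterase-like gene, was at 7.50, 7.22, 6.59, 6.82, 6.53 and 6.43, with a slope of -1.34 ± 0.26 (limma unadjusted p = 0.0016, adjusted 0.981; r = -0.95, exact permutation p = 0.00556, adjusted 0.968) and r of -0.93 without the 2 farthest mice. Btnl10, a butyrophilin-like gene, was at 7.61, 7.04, 6.81, 6.55, 4.73 and 5.43, with the steepest slope of all genes, -2.92 ± 0.80. Of the 3 highest burdens only 1 array detected Btnl10 and only 1 Smpdl3b, so both slopes include values near background. The others were 1700048O20Rik, 2900026A02Rik, Dnd1, Ppp3cc (a calcineurin catalytic subunit) and Yipf2, beside the class II and B-cell genes above. Strict order was rare: of the 9 genes whose 6 levels stood exactly in the order of burden (0.0796%; 0.0177% rising and 0.0619% falling), 4 were detected on all 6 arrays, and these were picked out after their values were seen. Chst12 was at 11.33, 11.38, 11.44, 11.49, 11.52 and 11.62 and had a slope of 0.32 ± 0.21. Etf1, Gpn3 and Zbtb39 stood in the falling order, with slopes of -0.46 ± 0.21, -0.38 ± 0.21 and -0.45 ± 0.21. All 4 had differences over the 6 mice that were small beside those of the leading genes.

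Resident macrophage genes had mostly positive slopes that rested on the mouse of lowest burden. Hmox1, the heme-degrading enzyme, was at 8.66, 9.55, 9.11, 9.33, 9.76 and 9.60, with a slope of 1.06 ± 0.36 (limma unadjusted p = 0.0235, adjusted 0.981). Vsig4, a complement receptor of macrophages, was at 6.22, 7.32, 8.17, 7.94, 6.58 and 7.87, and Timd4, a receptor for dying cells, at 5.83, 6.99, 6.74, 6.96, 6.47 and 7.02. C1qa, a complement C1q chain, was at 7.68, 8.96, 7.94, 8.97, 7.998 and 8.59. Each of these 4 genes was lowest in mouse 1, and Vsig4 and Timd4 were each detected on 2 of the 3 arrays of low burden. Of 15 measured members 13 had a positive slope and 0 passed the test. In unadjusted limma p 3 were below 0.05, while 0.575% of all genes were below that limit and higher with burden. Of the 15, 11 were lowest in mouse 1, against 13.7% of all genes. The median slope was 0.68, but -0.84 without mouse 1. The list's mean level, high minus low burden, was 0.44 in series 13 and -0.55 in series 12.

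Genes linked to tumor-induced myeloid cells had positive slopes as a rule, with mouse 5 on top. Prok2, a chemokine-like peptide of neutrophils, was at 10.32, 11.55, 10.35, 10.86, 13.36 and 11.78, against 9.64 ± 0.62 in NeuT- mice (SD, n = 5), and Wfdc17 at 11.59, 12.67, 11.25, 12.00, 14.08 and 12.63. Socs3, the feedback inhibitor of STAT3 signalling, was at 9.90, 11.12, 10.01, 10.60, 12.22 and 10.90. Of 20 measured members, 18 had a positive slope, 0 passed the test and 14 were highest in mouse 5, against 22.5% of all genes. The median slope was 0.44, 0.30 without that mouse and in series 13, 0.17 without mouse 1 and 0.83 without mouse 6.

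Genes of colony-stimulating factor signalling were highest in mouse 5 in 12 of 20 measured members, against 22.5% of all genes. The list averaged 8.53, 8.79, 8.81, 8.62, 9.32 and 8.83. Of its receptors and signal transducers, 3 were high in both mice of series 12. Csf2rb, the shared beta chain of the granulocyte-macrophage colony-stimulating factor, interleukin 3 and interleukin 5 receptors, was at 7.94, 8.63, 9.63, 8.33, 11.02 and 8.98. Il6ra, the alpha chain of the interleukin 6 receptor, was at 8.47, 9.12, 10.63, 8.90, 11.27 and 9.16, and Stat3, the transcription factor downstream of it, at 10.32, 10.45, 11.58, 10.57, 12.45 and 10.96. The levels of all 3 followed the series more than the burden, with mice 3 and 5 above the other 4. Slopes were 2.06 ± 1.17, 1.74 ± 1.24 and 1.47 ± 0.90 over the 6 mice, and 1.06, 0.72 and 0.71 in series 13 alone. The neutrophil chemokine receptor Cxcr2, at 11.30, 11.66, 12.86, 11.27, 13.68 and 11.80, had the same shape. Of 20 measured members of the signalling list, 15 had a positive slope and 0 passed, with a median of 0.50, of 0.28 without mouse 5 and of 0.25 in series 13.

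**Figure D3:**
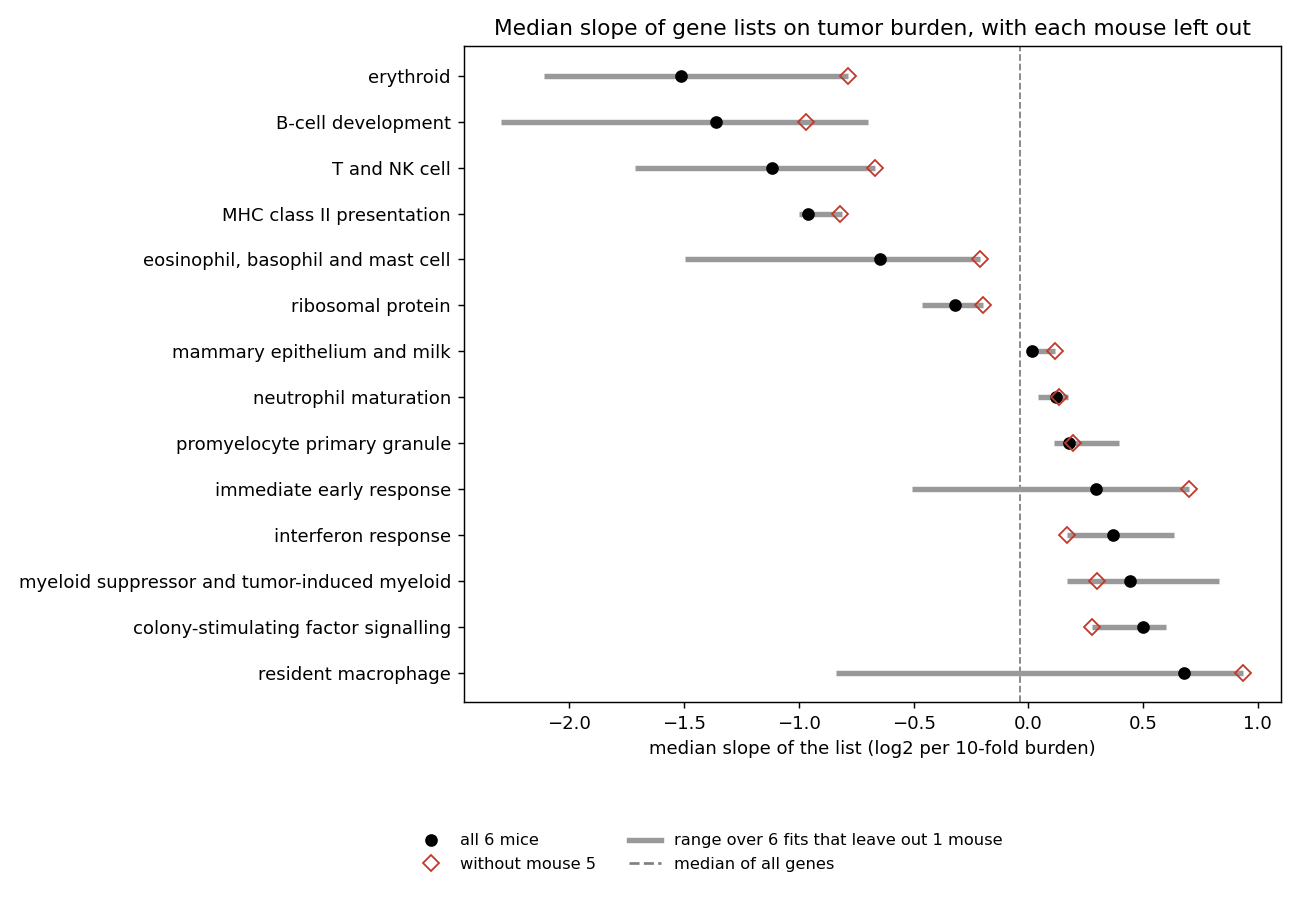
Median slope of the members of 14 gene lists (x axis, log2 per 10-fold burden; lists on the y axis) with all 6 mice, without mouse 5, and as a range over the 6 fits that leave out 1 mouse, with the median of all 11309 genes as a dashed line. The MHC class II list has a narrow range, from -0.998 to -0.813, while the resident macrophage range crosses 0, from -0.84 to 0.94.

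Genes of neutrophil granules and maturation had positive slopes for the most part, with low medians, and some sat near the top of the array's scale. Primary granule genes had a positive slope in 9 of 10 members, with a median of 0.18 (0.39 without mouse 1 and 0.11 without mouse 6), and neutrophil maturation genes in 17 of 18, with a median of 0.12 (0.042 without mouse 1); 0 passed in either list. Slopes ran from -0.05 to 0.46 in the first list and from -0.01 to 1.39 in the second, where Cxcr2 had the steepest. Mpo, the myeloperoxidase gene, lay between 15.92 and 15.97 in all 6 mice, where the array can show little difference. Interferon response genes had a median slope of 0.37 with 15 of 21 positive, 0.17 without mouse 5 and 0.64 without mouse 1; Oas3 and Oas2, antiviral oligoadenylate synthetase genes, had slopes of 0.72 ± 0.43 and 0.82 ± 0.52. Markers of mammary epithelium were used to look for tumor cells in the marrow. Of 14 measured, 11 were detected on none of the 6 arrays, Erbb2, Krt8, Krt18 and Krt19 among them. Over all genes, 2109 of 11309 were detected on none. Of the 14 markers, 1 was detected on at least 4 of the 6 arrays, and the median slope was 0.02. How small a share of tumor cells these arrays could show was not tested. Whether the mouse Erbb2 probe reads the rat transgene was not tested.

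The other 17 lists had no member that passed the test, and their medians ran from -0.285 to 0.40, beside -0.04 over all genes. Medians below 0 were those of the osteoblast and osteocyte (-0.285), endothelial (-0.28), iron and heme (-0.26), stem and progenitor (-0.25), dendritic (-0.23), megakaryocyte and platelet (-0.22), adipocyte (-0.14), plasma cell (-0.12) and cell cycle (-0.12) lists. Medians above 0 were those of the osteoclast (0.40), immediate early (0.30), unfolded protein response (0.16), mesenchymal stroma (0.15), hypoxia and glycolysis (0.12), skeletal muscle (0.12), inflammatory cytokine (0.09) and monocyte (0.07) lists. Cell cycle genes had a negative slope in 18 of 22 members. Immediate early genes, which respond within minutes to handling and stress, averaged 10.76, 11.66, 10.30, 11.60, 10.14 and 11.60, with both series 12 mice lowest, and their median came to -0.38 without mouse 1 and -0.51 without mouse 6. These medians depended on single mice. Without mouse 1 the median was 0.28 for the dendritic, 0.22 for the plasma cell, 0.02 for the cell cycle, -0.08 for the unfolded protein response, -0.0036 for the mesenchymal stroma, -0.17 for the skeletal muscle and -0.23 for the inflammatory cytokine list, each on the other side of 0. Without mouse 5 it was 0.11 for the plasma cell and -0.11 for the skeletal muscle list, and without mouse 6 it was 0.16 for the megakaryocyte and platelet list. The osteoclast list had a median of 0.09 without mouse 1 and of 0.76 without mouse 6. The remaining lists kept their sign, with medians from -0.60 (without mouse 1) to -0.02 (without mouse 5) for adipocyte, from -0.46 (without mouse 1) to -0.16 (without mouse 5) for endothelial and from -0.42 (without mouse 6) to -0.10 (without mouse 5) for iron and heme genes. They came to -0.43 for stem and progenitor and -0.18 for osteoblast and osteocyte genes without mouse 1, to 0.03 without mouse 5 and 0.26 without mouse 6 for hypoxia and glycolysis genes, and to 0.03 without mouse 1 and 0.40 without mouse 6 for monocyte genes.

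The contrast of the 3 highest with the 3 lowest burdens gave 0 of 11309 genes (0%) at an adjusted limma p under 0.05, with a smallest adjusted p of 0.998, and 371 genes (3.28%) at an unadjusted p under 0.05. The 20 possible splits allow no two-sided exact permutation p below 0.1, and 1019 genes (9.01%) reached it: 535 (4.73%) were higher in all 3 mice of high burden and 484 (4.28%) lower in all 3. Differences were above 0 in 51.4% and below 0 in 48.6% of all genes. On simulated data, a difference of 1 was called for 109 of 200 genes and one of 2 for 198 of 200. These counts need not carry over: Apol11b, with a measured difference of -1.81 ± 0.58, had an adjusted limma p of 0.998. Mice 4 and 3 fell on opposite sides with almost the same burden.

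Among genes detected on at least 4 of the 6 arrays, without overlap between high and low burdens and with the same sign in both series, the widest differences on the high side were those of Cstdc6, BC049762, Il27, Gpc3, Nr1h3 and Slc16a3. Slc16a3, the lactate exporter MCT4, was at 7.70, 7.88 and 7.92 in the 3 highest and at 7.39, 7.49 and 6.62 in the 3 lowest burdens, against 6.53 ± 0.64 in NeuT- mice (SD, n = 5). High minus low was 0.67 ± 0.24 log2 (SE; limma unadjusted p = 0.0294, adjusted 0.998; exact permutation p = 0.1), 1.27 in series 12 and 0.38 in series 13. Il27, the p28 chain of interleukin 27, was at 7.36, 7.66 and 7.32 in the 3 highest and at 7.00, 7.23 and 6.03 in the 3 lowest burdens, a difference of 0.70 ± 0.31. The difference of Il27 was 1.63 in series 12 and 0.23 in series 13. BC049762, Il27, Gpc3 and Nr1h3 were each detected on 2 of the 3 arrays of low burden. Gpc3, a cell-surface proteoglycan gene, was at 7.08, 7.71 and 7.03 in the 3 highest and at 6.32, 6.67 and 6.74 in the 3 lowest burdens, a difference of 0.70 ± 0.22. Cstdc6, of a cystatin gene family with near-identical copies and therefore uncertain, had a difference of 1.19 ± 0.67, 2.83 in series 12 and 0.37 in series 13, with mouse 5 at 10.08 and mice 4 and 6 at 7.45 and 7.62.

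**Figure D4:**
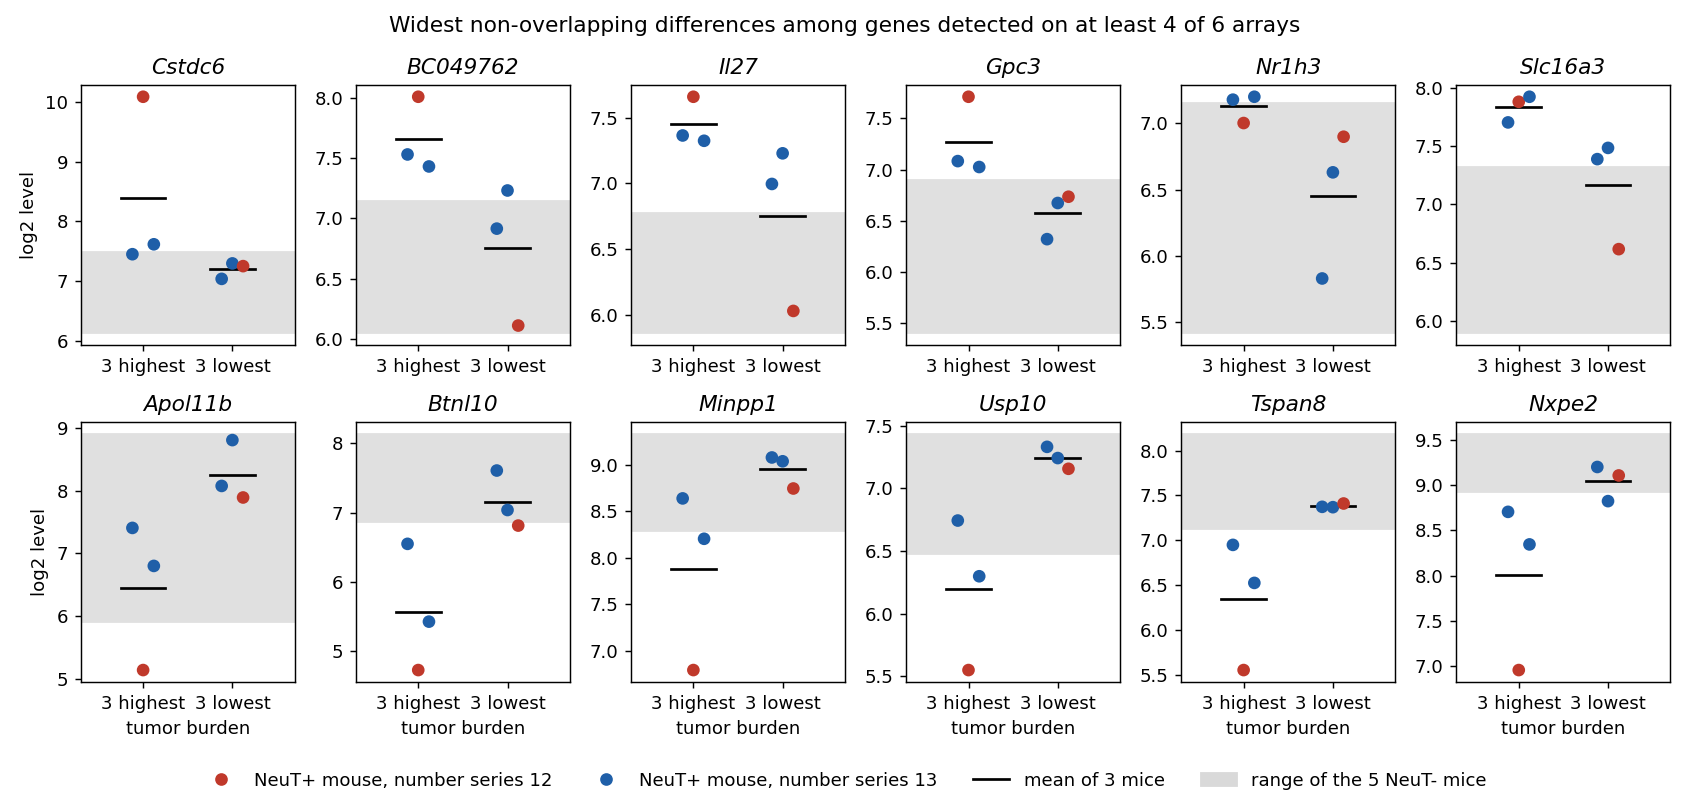
Log2 level (y axes) of the 6 genes higher (top) and the 6 genes lower (bottom), among those detected on at least 4 of the 6 arrays, in the 3 mice of highest burden than in the 3 of lowest burden (x axes), coloured by number series, with the mean of 3 mice as a bar and a grey band for the range of the 5 NeuT- mice. The genes were chosen for no overlap between high and low burdens and for equal sign in both number series. In all 6 lower panels mouse 5 has the lowest level.

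On the low side the widest differences among genes chosen by the same limits were those of Apol11b, Btnl10, Minpp1, Usp10, Tspan8 and Nxpe2. Apol11b, of the apolipoprotein L family, was at 7.40, 5.14 and 6.80 in the 3 highest and at 8.07, 8.81 and 7.89 in the 3 lowest burdens, a difference of -1.81 ± 0.58 (limma unadjusted p = 0.0173, adjusted 0.998; exact permutation p = 0.1). Usp10, a deubiquitinase gene, was at 6.74, 5.55 and 6.30 in the 3 highest and at 7.33, 7.24 and 7.16 in the 3 lowest burdens, a difference of -1.05 ± 0.29. Tspan8, a tetraspanin gene, was at 6.95, 5.55 and 6.52 in the 3 highest and at 7.37, 7.37 and 7.41 in the 3 lowest burdens. Of the 3 arrays of high burden, Usp10 and Btnl10 were detected on 1 and Apol11b and Tspan8 on 2, so these differences include values not above background. The 3 lowest burdens lay close together in Tspan8 and the 3 highest were spread out below them. In all 6 genes mouse 5 was lowest, and the difference within series 13 was smaller than within series 12 for each (for Nxpe2, -0.49 against -2.15).

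In 11 of 11309 genes detection was complete on the arrays of one side of the contrast and absent on the other. These genes were picked by detection on this same split, so the pattern is no independent evidence about burden. Crlf2, the receptor for thymic stromal lymphopoietin, Btg2, an anti-proliferative early-response gene, and Snx33, a sorting nexin gene, were detected on all 3 arrays of high and on none of low burden. Btg2 was at 6.78, 7.00 and 6.67 in the 3 highest and at 5.44, 5.55 and 5.00 in the 3 lowest burdens, and had the smallest contrast p of all genes (limma unadjusted p = 0.000115, adjusted 0.998). Since the 3 lowest burdens were not well above background, the difference is given as at least 1.29-fold, with at least 1.49-fold for Crlf2 and at least 1.25-fold for Snx33. Each bound divides the mean of the brighter arrays by a floor for the dimmer ones, which is, array by array, the larger of the dimmest detected level and that of the gene itself. In NeuT- mice Btg2 was detected on 4 of 5 arrays, at 6.71 ± 0.68, so its 3 highest burdens lay at the NeuT- level. Snx33 was detected on all 5 NeuT- arrays, at 7.06 ± 0.20, above the mean of 6.77 in its 3 highest burdens. Crlf2 was detected on 2 of 5 NeuT- arrays, at 6.24 ± 0.35. The other 8 genes were detected on all 3 arrays of low and none of high burden, led by Grb7, an adaptor of receptor tyrosine kinases, at least 1.43-fold lower, Tspan6, at least 1.18-fold lower, and Dusp10, a phosphatase of stress kinases, at least 1.15-fold lower. Levels of Tspan6 and Dusp10 overlapped between high and low burdens: Dusp10 was at 6.44, 6.51 and 6.49 in the 3 highest and at 6.81, 7.01 and 6.38 in the 3 lowest burdens, and its difference in series 12 was 0.13, against -0.44 in series 13. Grb7 and Tspan6 were detected on all 5 NeuT- arrays and Dusp10 on 4 of 5.

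The 12 weeks mice gave a look at the same genes in other animals. Their 6 burdens were far lower, from 39293 to 798790, and they belong to the number series 11 and 15, so that age, burden range and series differ together and cannot be told apart. In these mice 0 of 11309 genes (0%) had an adjusted limma p under 0.05 and 561 (4.96%) an unadjusted p under 0.05; 48.2% of slopes were below 0 and 51.8% above. Of the 12 leading genes with a positive slope at 24 weeks, 2 had a positive slope at 12 weeks, and of the 12 with a negative slope, 2 had a negative one. H2-Ea had a slope of 0.29 ± 0.16 at 12 weeks, H2-Eb1 of 0.33 ± 0.21, Fcer2a of 0.79 ± 0.41 and Nr1h3 of -0.01 ± 0.27. For the class II list 7 of 10 slopes were positive at 12 weeks, with a median of 0.21, and for the B-cell list 7 of 15, with a median of -0.03. The difference of slopes, 24 weeks minus 12 weeks, passed the limma test for 0 genes (0%), with 596 (5.27%) at an unadjusted p under 0.05 and a smallest adjusted p of 0.375. That smallest value was for 1700048O20Rik, a gene without a described function here, at 8.32, 7.71, 7.49, 7.66, 6.80 and 7.11 in the 24 weeks mice, with a slope of -1.56 ± 0.36 at 24 weeks and 0.96 ± 0.17 at 12 weeks.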

How the data were processed

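The deposited raw table gave an intensity per probe on a linear scale and a detection p-value beside it, exported from BeadStudio per the series' design text. The authors' processed log2 values, made with lumi by a robust spline per the design text, served as an alternative. The labels and the design text name different labelling kits, and which was used is unsettled here.

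From these intensities, neqc of limma 3.58.1 (offset 16; R 4.3.3) corrected the background and equalized the arrays' quantiles. A probe stayed in if any of 52 arrays gave it a detection p under 0.01, 21592 in all; 18225 had 1 symbol, and each gene is its brightest probe, giving 11309 genes. Names came from the platform annotation, updated through RefSeq (GRCm38.p6): 34885 of 45281 probes had 1 symbol, 18 several and 10378 none listed, and no gene was named from those with several. Levels of different probes were not compared. All sample columns were matched to labels.

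Slopes on log10 burden and the high minus low difference were fitted with lmFit and eBayes on the 6 arrays, with Benjamini-Hochberg adjustment over all genes and a threshold of 0.05; ± after a slope or difference is its standard error. The slope was set against 12 weeks by an interaction term. Exact permutation p-values are two-sided, 2 times the smaller tail, over 720 orders or 20 splits (Python 3.11.15, scipy 1.17.1). Fits were tested on simulated data with 200 changed genes. By its title every array is of a different animal.

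Leading genes were the 12 per direction of smallest p among genes detected on at least 4 of the 6 arrays whose slope kept its sign without each mouse; for the contrast, the 6 per direction of largest difference among non-overlapping genes of equal sign in both number series; up to 3 per direction by detection; Peg3; and of each list those of largest slope, other members being given with their values. The mice, the genes and the 30 lists were chosen with earlier results of these data known. Alternatives were other normalizations, filters, probe rules, samples in the fit, burden scales, the number series as a block or series 13 alone, and leaving out mice.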

Additional observations from a re-analysis of the deposited data

Results flagged for a closer look

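In 12 of 101 sets of 6 values examined, 1 mouse lay far from the other 5, and chance flags about 1 in 20 such sets; the sets share the same 6 mice, so they are not independent. Mouse 5 was the distant one in 9 of the 12. It was lowest for Slc4a1 (9.68 log2, against 12.14 to 12.86 in the other 5), Hbb-bt (13.06 against 14.92 to 15.56), Cd3e (5.40 against 7.13 to 7.95), Ccl5 (7.36 against 8.82 to 9.57) and Mcpt8 (8.20 against 9.86 to 10.56). The same mouse was lowest in the mean of the erythroid list (8.77 against 10.08 to 10.83), of the eosinophil, basophil and mast cell list (9.87 against 10.95 to 11.17) and of the endothelial list (6.56 against 6.98 to 7.15). It was highest for Cstdc6 (10.08 against 7.04 to 7.62).

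Mouse 3, also of series 12, had 15818 detected probes against 14578 to 15007 in the others, and the highest mean of the megakaryocyte and platelet list (10.08 against 9.21 to 9.53). Mouse 1 had the lowest level of Ranbp2 (5.46 against 6.42 to 6.81). No difference between 24 and 12 weeks passed its test.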

How the results depend on the processing

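Counts of genes past the adjusted threshold were 0 for the slope and 0 for the contrast under every alternative fitted, including the exact permutation of Pearson r, which was added after seeing the data; the smallest adjusted p, 0.0805 for the slope and 0.129 for the contrast, came with all 47 mice in one fit. Counts at an unadjusted p under 0.05 ran from 157 with genes detected on at least 3 of the 6 arrays (158 with burden on the linear scale) to 789 with all 47 mice for the slope, against 262, and from 261 with genes detected on at least 3 arrays to 796 with the number series as a block for the contrast, against 371. Beyond 1.5 times they also moved to 488 and 706 (no filter on detection), 523 (slope in series 13), 750 (slope without the 2 mice farthest from the median burden), 589 (slope without mouse 6), 622 (contrast without mouse 4), 699 (contrast with all 47 mice) and 647 (2 highest against 2 lowest). Median scaling moved the median slope of all genes from -0.04 to -0.19 and the share of lower genes among those at an unadjusted p under 0.05 to 92.5%, against 75.2%, for the slope and to 94.1%, against 62.8%, for the contrast. That share was 57.5% for the slope without mouse 1 and 62.5% with the number series as a block.

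Of 57 genes with a slope followed through the alternatives, 51 kept their sign in all, and the 12 contrast genes kept theirs in all. The choice of genes fixed part of this. Leading slope genes were chosen to keep their sign without each mouse. Contrast genes were chosen for no overlap and equal sign in both number series, so leaving out mice or fitting by series could not reverse them. Without the 2 mice farthest from the median burden the slope of Ranbp2 was -0.52, the slope of Vsig4 -1.80, the slope of Timd4 -1.59, the slope of C1qa -3.05 and the slope of Oas3 -0.0512; without mouse 1 it was -0.12 for Timd4 and -0.84 for C1qa; the slopes without 1 mouse ran from -0.12 to 1.30 for Timd4 and from -0.84 to 0.92 for C1qa. The slope of Mpo was 0.057 with the authors' log2 values, 0.0467 with median scaling and 0.13 with the mean of its probes. Pearson r of the number of detected probes ran from -0.0721 to 0.114 over the fits that leave out 1 mouse. Of the 30 lists, 17 kept the sign of their median slope in all 19 alternatives; the MHC class II, B-cell, T and NK, erythroid, myeloid suppressor and colony-stimulating factor lists are among them, and resident macrophage genes are not (-2.33 without the 2 farthest mice). The cause of these shifts was not tested. No paired analysis was possible because the titles give animal numbers that no mouse shares with another group.

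The number of mice limits precision, and levels near background or near the top of the scale understate differences. The labels give no unit for tumor burden and do not say what the number series mark.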
